A study of Sus scrofa domesticus with 150 samples.

Results

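The small leucine-rich proteoglycans are secreted proteins of the connective tissue matrix, and 7 of their genes were followed through 21 days of skin wound healing in the pig. The genes were decorin (DCN), biglycan (BGN), asporin (ASPN), lumican (LUM), fibromodulin (FMOD), prolargin (PRELP) and osteoglycin (OGN). They were taken by gene symbol from a table of 30461 genes, of which 21687 carried a symbol, and each symbol matched 1 row. For LUM and BGN the symbol came from the protein match in the gene description, and for the other 5 genes it came from the name column.

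RNA was sequenced from 6 female pigs of a Yorkshire mix whose age was not given in the sources used here. Each animal carried 12 circular full-thickness wounds on the back, which were dressed and received no other treatment, and a wound left the experiment after its biopsy. An antibiotic ointment was put on the biopsy sites against infection. Wounds sampled later thus came from animals with treated sites on other wounds. Day 0 was the whole skin excised at wounding, with 1 sample from each of the 6 animals, and it had neither an edge nor a center. The 72 wounds each gave 1 small biopsy from the edge and 1 from the center, which made 150 samples in 29 states of day and location. Each of the 10 sampling days up to day 13 had 6 wounds, as 2 wounds in each of 3 animals, and days 15, 16, 19 and 21 had 3 wounds, 1 in each of 3 animals. Animals 1 to 3 gave days 1, 3, 5, 7, 11, 15 and 21, and animals 4 to 6 gave days 2, 4, 6, 9, 13, 16 and 19, so neighbouring days differ in animals. The place of a wound on the back went with the sampling day, so place and time cannot be told apart.

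These proteoglycans share a core of leucine-rich repeats that binds collagen fibrils, and most carry chains of sulfated sugar. Class I holds DCN and BGN, which carry chondroitin or dermatan sulfate, and ASPN, which carries no such chain. Class II holds LUM, FMOD and PRELP, of which LUM and FMOD can carry keratan sulfate, and OGN belongs to class III. In skin they set the width and spacing of collagen fibrils, and several bind growth factors such as TGF-beta. Fibroblasts are their main source in the dermis.

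Most of these genes lie in pairs on the assembly contigs that the gene table names. DCN (gene ENSSSCG00025017420, contig LUXX01020193.1, 211540 to 319649, plus strand) was followed 35189 bases on by LUM (ENSSSCG00025017682, 354839 to 363585, plus strand) with no gene between. KERA and EPYC, which belong to the same family, came next on that contig. FMOD (ENSSSCG00025009857, LUXX01023885.1, 569038 to 580124, minus strand) stood 117462 bases from PRELP (ENSSSCG00025009975, 697587 to 713691, plus strand). ASPN (ENSSSCG00025013709, LUXX01021084.1, 1397124 to 1424404, plus strand) and OGN (ENSSSCG00025013854, 1454017 to 1473292, plus strand) were 29612 bases apart, with the family member OMD between them. BGN (ENSSSCG00025074442, LUXX01059036.1, 156229 to 176375, plus strand) had no other member on its contig.

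Total counts ran from 13133379 to 24895572 per sample. The lowest count of any of the 7 genes in any sample was 29, for OGN, so all 7 passed the filter on low counts in every comparison. The summed level of 10 fibroblast markers, which include 3 collagens, was 37136 to 115210 CPM (the count scaled by the total count of the sample) in day 0 skin, and none of the 10 was at 0 in any sample. The 7 keratinocyte markers found, of 10 listed, summed to 33439 to 79967 CPM in day 0 skin. From day 2 to day 9 the centers stayed at or below 2599.6 CPM for that sum, apart from 1 library of day 3 at 36921 CPM. On days 1, 3 and 11, 1 center library each was above 25% of the median of that day's edges, and 1 edge library of day 3 had only 85.79 CPM. Above that limit were also 2 of 3 centers on day 15, with 22667 CPM at the highest, 1 of 3 on day 16, at 33599 CPM, and all 3 on days 19 and 21. Of the other libraries that stood apart, 4 had high skeletal muscle markers. The calls with and without 7 of these libraries are given beside the results, and because whole tissue was sequenced, fewer cells of a type and less RNA per cell cannot be told apart.

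DCN, the fibril-binding proteoglycan that is best known in skin, was the most abundant of the 7 genes in day 0 skin. Per gene length, as FPKM, it made up 78.80% ± 2.24 (SD, n = 6) of the sum of the 7 genes there. LUM followed with 9.57% ± 1.69, BGN with 4.10% ± 1.22 and OGN with 2.54% ± 0.26. ASPN (2.04% ± 0.67), PRELP (1.98% ± 0.56) and FMOD (0.98% ± 0.22) were the least abundant, and the ranges of ASPN and PRELP overlapped. PRELP stood above FMOD in the mean, and the FPKM of PRELP over FMOD had a median of 2.10 there and of 0.0764 in the day 16 centers.

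**Figure D1:**
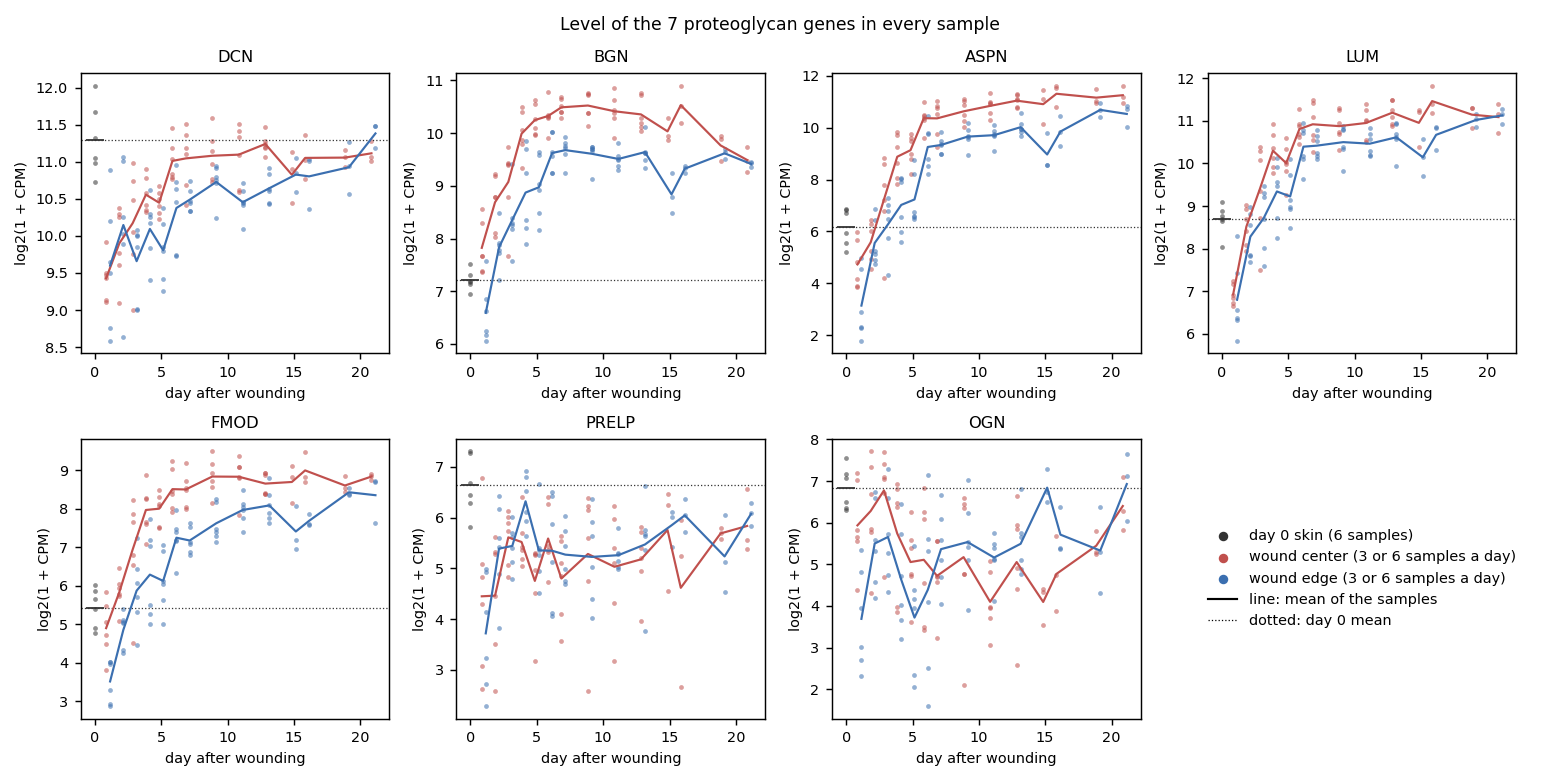
Level of each gene as log2(1 + CPM) on the vertical axis against the day after wounding, with 1 point per sample, lines through the mean of each day's 3 or 6 samples, and day 0 skin in black with its mean as a dotted line. ASPN, LUM, FMOD and BGN end far above their dotted line, DCN returns to it, and PRELP and OGN stay mostly below it with wide scatter.

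DCN was lowest on the first day and returned to the day 0 level. Day 0 skin held 1686 CPM at the lowest, 2329 at the median and 4158 at the highest, and the day 1 centers held 553.3, 697.7 and 969.2. These groups did not overlap, whereas the day 1 edges, at 384.2 to 1899 CPM, overlapped with day 0 skin. By day 13 the centers were at 2149, 2381 and 2835 CPM, inside the day 0 range. The day 21 edges, at 2322, 2858 and 2859 CPM, were the highest state of DCN, at 11.38 ± 0.17 on the log2(1 + CPM) scale against 11.29 ± 0.48 for day 0. The span from the lowest to the highest of the 29 states was 3.87-fold for DCN, the narrowest of the 7 genes.

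BGN, which in soluble form is also known as a ligand of Toll-like receptors, had its lowest levels in intact skin and in the day 1 edges. Its 6 day 0 samples had 122.0 CPM at the lowest, 144.6 at the median and 183.1 at the highest. The day 1 centers were at 163.0, 202.9 and 374.7 CPM and overlapped with day 0, while every center sample from day 2 on and every edge sample from day 3 on was above all of day 0. BGN centers were highest on day 16 (1166, 1457 and 1905 CPM), and on day 21 they were at 612.0, 707.7 and 856.4 CPM. The day 1 edges, at 65.9 to 189.0 CPM, were the lowest state of BGN, and its states spanned 15.4-fold.

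ASPN, a collagen-binding class I protein that is also known to bind TGF-beta, moved through the widest range. Day 0 skin held 36.14 to 114.2 CPM with a median of 82.41. The day 1 edges held 2.459, 5.195 and 30.84 CPM (lowest, median and highest), all below day 0. The day 16 centers held 1781, 2988 and 3101 CPM, all more than the highest day 0 sample, and the edges of that day held 621.1, 914.7 and 1396 CPM. From day 6 on, all center and edge samples of ASPN were above the day 0 range, and the lowest and highest states were 289-fold apart on the log2(1 + CPM) scale.

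LUM, the keratan sulfate proteoglycan known from the cornea as well as from skin, fell and rose again within days. It was at 260.5, 423.4 and 542.7 CPM (lowest, median and highest) in day 0 skin and at 100.2, 116.0 and 149.0 CPM in the day 1 centers. These groups did not overlap. From day 4 on, all center samples were above the day 0 range, with 611.3 CPM on day 5 as the lowest of them. LUM was highest in the day 16 centers, at 2330, 2679 and 3616 CPM, and its states spanned 25.4-fold.

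FMOD, the other keratan sulfate member of class II, held 26.18, 44.87 and 63.13 CPM in day 0 skin. The day 1 edges, at 6.341, 11.62 and 15.15 CPM, were all below day 0, whereas the day 1 centers, at 12.98, 28.86 and 55.72 CPM, overlapped with it. From day 4 on all FMOD centers were at 134.9 CPM or more, above the day 0 range. The day 16 centers, at 409.4, 450.5 and 710.2 CPM, were its highest state, and the lowest and highest states were 44.7-fold apart.

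PRELP, which binds heparin and is known for anchoring basement membranes to the connective tissue, had its highest state in day 0 skin. There it was at 55.5, 93.73 and 157.1 CPM. The day 1 edges held 3.896, 12.58 and 30.59 CPM, all below day 0, and the day 1 centers held 5.139 to 108.4 CPM and overlapped with it. The spread between PRELP replicates was wide: the 3 day 16 centers held 5.317, 36.74 and 60.77 CPM. The SD over replicates was above 1 on the log2 scale in 8 of the 29 states.

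OGN, the class III member, also called mimecan, was the most variable between replicates. It held 77.52, 112.0 and 187.2 CPM in day 0 skin and 3.947, 10.78 and 39.66 CPM in the day 1 edges, with no overlap. The day 6 edges ran from 2.035 to 141.7 CPM across 6 wounds. The median SD of OGN over replicates was 1.03 on the log2 scale, against 0.29 for BGN and 0.33 for DCN, and the SD was above 1 in 15 of 29 states.

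The order of the states was read against this spread. For each gene the 29 state means were sorted, and each of the 28 gaps between neighbours was compared with the smaller of their SDs. None of the gaps exceeded it for DCN or OGN, 1 did for PRELP, 3 for LUM, 4 each for FMOD and ASPN and 6 for BGN. Most neighbouring states in these orders thus did not differ beyond their spread. Day 0 skin ranked 1 from the top for PRELP, 2 for DCN and 3 for OGN, but 25 for LUM and ASPN, 26 for FMOD and 28 for BGN.

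The next comparison asked how far each gene was from intact skin at each stage. Counts were summed per animal in 7 windows of neighbouring days, so that every window held all 6 animals, and were tested against day 0 with edgeR's quasi-likelihood test for each location. A call means an adjusted p (Benjamini-Hochberg over all genes tested) below 0.05, and fold changes are given as log2 with their standard error (SE). In the centers 25 of 49 gene and window tests were higher and 15 lower, beside 32.7% and 30.4% of the tests of all genes. In the edges 22 of 49 were higher and 15 lower, beside 26.3% and 21.3% of all genes. The median log2 change of all genes stayed within 0.034 of 0 in these windows. Removing 7 libraries that stood apart kept all 77 calls and added 1, OGN lower in the edges of days 11 and 13.

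On days 1 and 2 the losses prevailed. In the centers 4 of the 7 genes fell, DCN, ASPN, LUM and PRELP, beside 31.7% of all genes, and in the edges 6 of 7 fell, all but BGN, beside 19.7% of all genes. In the centers PRELP fell most, by 2.02 on the log2 scale (SE 0.42, adjusted p = 6.7e-05). In the edges PRELP and OGN both fell by 1.81, with an SE of 0.37 (adjusted p = 0.00011) for PRELP and of 0.56 (adjusted p = 0.0072) for OGN. BGN alone rose in the centers, 2.01-fold (SE 0.21 on the log2 scale, adjusted p = 5.1e-05), and its edge value was 0.09 ± 0.22. FMOD in the centers was at -0.14 ± 0.27 and OGN at -0.66 ± 0.46, neither past the threshold. The ASPN calls of these days were lost in the centers without animal 5 (adjusted p = 0.052) and in the edges without animal 1 or 3 (up to 0.090).

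The fibroblast marker sum, which is mostly collagen, was lower in the same samples. In day 0 skin the medians were 19115 CPM for COL1A1, 16848 for COL1A2 and 20455 for COL3A1, and every other listed marker had 318.4 or less. The sum was 12428 to 18181 CPM in the day 1 centers and 5677 to 25338 CPM in the day 1 edges. Both are below the day 0 range given above, and the part of the sum in the result was not tested. Adipocyte markers, of which 7 of 9 were found, summed to 4970 to 17934 CPM in the day 1 centers and to 151.0 to 1652 CPM in day 0 skin.

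From days 3 and 4 on, BGN, ASPN, LUM and FMOD were called higher in all 6 center windows. BGN reached 3.38 ± 0.23 on days 7 and 9, or 10.4-fold (adjusted p = 1.4e-16), and stood at 2.62 ± 0.22 on days 19 and 21. FMOD reached 3.58 ± 0.29 on days 15 and 16, or 11.9-fold, and LUM 2.71 ± 0.30, or 6.54-fold, in the same window. ASPN rose furthest, by 5.09 ± 0.42 or 34.1-fold on days 19 and 21 (adjusted p = 1.8e-13). In the edges the same 4 genes were called higher from days 5 and 6 on, with ASPN at 4.58 ± 0.53 or 23.9-fold and FMOD at 3.20 ± 0.33 on days 19 and 21. On days 3 and 4 the edge values of ASPN (0.60 ± 0.46) and LUM (0.42 ± 0.29) did not pass, while BGN (1.53 ± 0.22) and FMOD (0.86 ± 0.31) did, FMOD not without animal 2 or 6 (adjusted p up to 0.087). Days 19 and 21 had 4 of 7 genes higher in each location, beside 26.3% of all genes in the centers and 24.0% in the edges. The fibroblast marker sum was also above the highest day 0 value in all 3 day 19 centers and all 3 day 21 edges, at 118025 to 143009 and 147017 to 173329 CPM, and its part in the result was not tested. The sums of the day 21 centers and the day 19 edges are not given here.

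DCN, PRELP and OGN were called lower or not at all against day 0. DCN was lower in the first 3 center windows (-1.81 ± 0.20, -1.04 ± 0.20 and -0.63 ± 0.20) and the first 5 edge windows (-1.48 ± 0.24 at the furthest, on days 3 and 4), and then came back to within 0.44 of day 0. Of the DCN calls, those of the centers on days 5 and 6 (adjusted p = 0.059) and of the edges on days 7 and 9 (0.11) were lost without animal 5, and that of the edges on days 11 and 13 without animal 4 or 5 (up to 0.13). PRELP was lower in the centers up to days 15 and 16, where it was at -1.02 ± 0.41 and the call was lost without animal 1, 4, 5 or 6 (adjusted p up to 0.18). Its call was also lost without animal 4 in the centers of days 3 and 4 (0.069) and the edges of days 11 and 13 (0.091). OGN differed by location: the centers were at -0.66 ± 0.46 and -0.37 ± 0.46 in the first 4 days and called lower from days 5 and 6 to days 15 and 16 (-1.48 ± 0.47 to -2.20 ± 0.48), whereas the edges were called lower on days 1 to 6 (-1.37 ± 0.55 to -2.08 ± 0.56) and stood at -0.17 ± 0.54 at the end. The OGN edge call of days 3 and 4 was lost without animal 1, 4 or 5 (adjusted p up to 0.12). With the animal as a block, 3 more edge calls passed, PRELP on days 3 and 4 (adjusted p = 0.036) and OGN on days 7 and 9 (0.031) and days 11 and 13 (0.029).

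**Figure D2:**
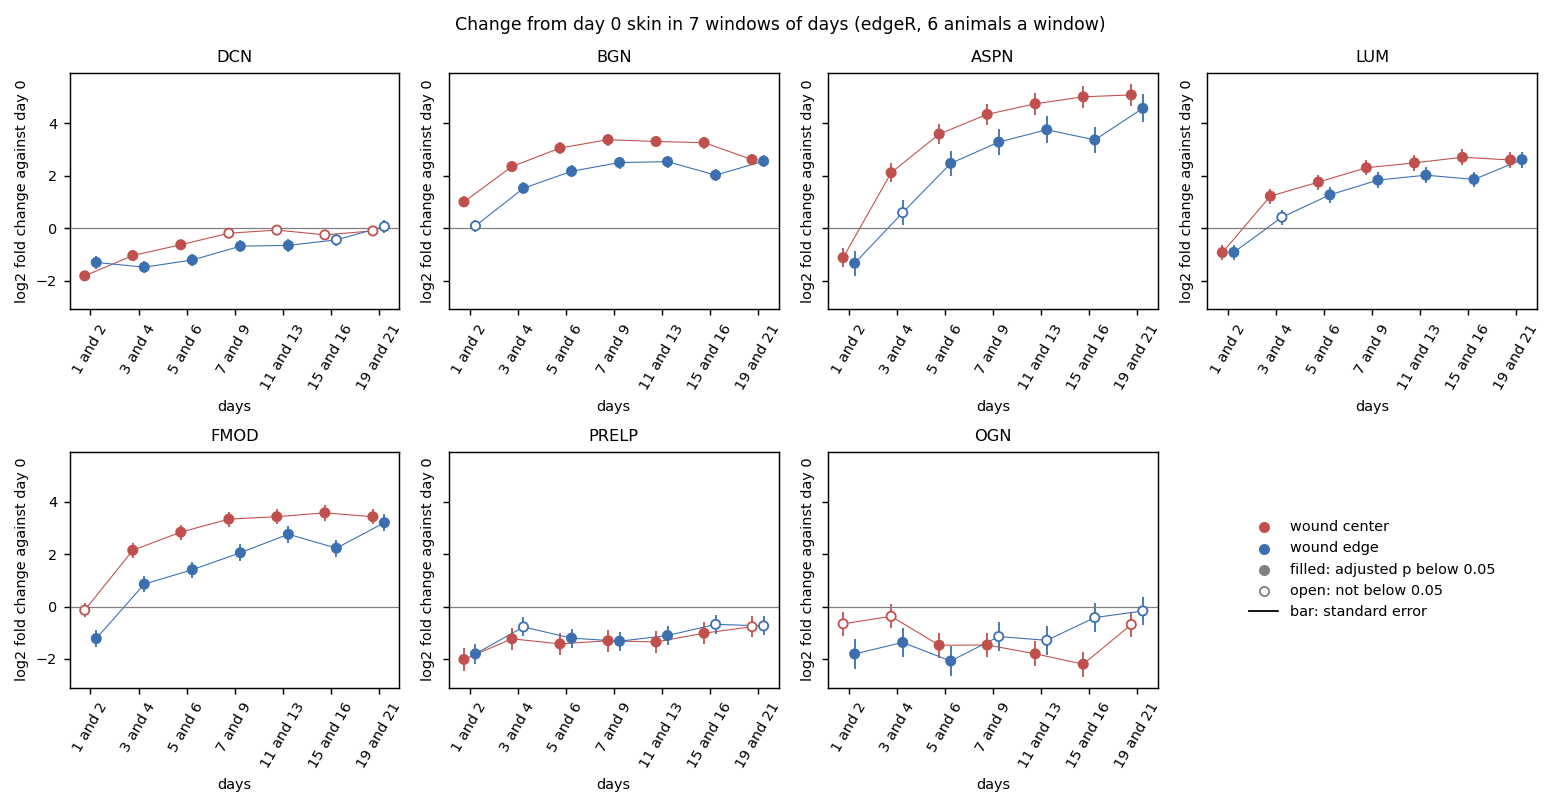
Log2 fold change from day 0 skin (vertical axis) in 7 windows of days (horizontal axis) from edgeR, 6 animals per window, centers in red and edges in blue, with bars for the standard error and filled points for adjusted p below 0.05. ASPN reaches 5.09 in the centers, and BGN, LUM and FMOD lie between 1.84 and 3.58 from days 7 and 9 on. DCN climbs back to 0, and PRELP and OGN lie below 0.

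Most of the calls between successive windows came in the first step. The rise from day 0 went on after that step, with ASPN in the edges at 2.48 on days 5 and 6 and at 4.58 on days 19 and 21. Each window was also tested against the one before it. In the centers 7 of 42 tests were higher in the later window and 1 lower, beside 3.56% and 2.76% of all genes, and in the edges 5 of 42 were higher and none lower, beside 2.69% and 2.12% of all genes. From days 1 and 2 to days 3 and 4 the centers gained in ASPN by 3.24 ± 0.38, FMOD by 2.29 ± 0.28, LUM by 2.15 ± 0.29, BGN by 1.35 ± 0.21 and DCN by 0.77 ± 0.20. The edges gained over the same step in FMOD (2.08 ± 0.32), ASPN (1.93 ± 0.48), BGN (1.44 ± 0.22) and LUM (1.34 ± 0.30). In this step alone 8.88% of all genes were called higher in the centers and 8.17% in the edges. ASPN in the centers was called higher again on days 5 and 6 (1.48 ± 0.36, adjusted p = 0.031), a call lost without animal 1, 2, 3, 4 or 5, with an adjusted p of up to 0.25.

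The last step had 3 calls, none of which held in every leave-out. In this step alone 7.07% of all genes were called higher and 8.55% lower in the centers, and 4.32% and 1.61% in the edges. From days 15 and 16 to days 19 and 21, BGN in the centers fell by 0.65 on the log2 scale (SE 0.21, adjusted p = 0.028), OGN in the centers rose by 1.51 ± 0.47 (adjusted p = 0.025) and FMOD in the edges rose by 0.97 ± 0.31 (adjusted p = 0.049). The BGN call was lost without animal 3, 5 or 6 (adjusted p up to 0.12), the OGN call without animal 1, 2 or 3 (up to 0.19) and the FMOD call without animal 2, 3, 4, 5 or 6 (up to 0.26). The fall of BGN was also not called with the 2 groups compared alone or with each wound sample as a library. With the animal as a block the edges had 10 of 42 tests higher in place of 5, with ASPN, BGN and LUM added in the last step, ASPN on days 5 and 6, and PRELP on days 3 and 4. The block also raised the step calls of all genes, over both locations and directions, from 11538 to 15212. No edge test was called lower with the block either, DESeq2 called 0 lower, and edgeR had 1 edge test lower at an unadjusted p below 0.05.

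The second question of the design was how the edge of a wound differed from its center on the same day. Edge and center samples of each day were compared in 14 fits, 1 per day. Of 98 gene and day tests, 30 were lower at the edge and 3 higher, beside 11.0% and 12.5% of the tests of all genes. All 30 belonged to BGN, FMOD, ASPN and DCN except 1 of OGN. Where 2 wounds of an animal entered a day, they counted as separate samples. Summing them per animal, on the 10 days that allow it, gave 26 calls, with 23 of the 28 calls of those days among them. It lost ASPN and FMOD on day 9, DCN on days 11 and 13 and BGN on day 13, and gained LUM, BGN and FMOD on day 4. Removing the 7 libraries that stood apart gave 35 calls in place of 33, with all 33 among them and OGN on day 3 and LUM on day 11 added.

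BGN was lower at the edge on 10 of 14 days. On day 15 the edges held 354.9, 442.5 and 606.5 CPM and the centers 932.4, 989.9 and 1246, without overlap, and the log2 fold change was -1.23 ± 0.27 (adjusted p = 0.032), a call that was lost with the wound as a block (adjusted p = 0.065) and without wound 2 or 3. On day 7 the change was -0.82 ± 0.13 (adjusted p = 0.00028) and held without any of the 6 wounds. It was -0.09 ± 0.20 on day 19 and -0.09 ± 0.19 on day 21. Its calls of days 6 (without wound 1, 2 or 3, adjusted p up to 0.11), 13 (without wound 4, 5 or 6, up to 0.074) and 16 (without wound 2 or 3, up to 0.23) were also lost in leave-outs. BGN was higher at the edge in only 2 of 72 wounds.

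FMOD was lower at the edge on days 1, 2, 5, 6, 7, 9, 11 and 16, and was higher at the edge in only 2 of 72 wounds. The calls of day 6 (without wound 1 or 2, adjusted p up to 0.050), day 11 (without wound 5, 0.061) and day 16 (without any of the 3 wounds, up to 0.20) were lost in leave-outs. Its largest difference was on day 5, when the edges held 31.11, 66.53 and 131.2 CPM and the centers 180.8, 271.0 and 359.1 (lowest, median and highest). The groups did not overlap, and the log2 fold change was -1.77 ± 0.33 (adjusted p = 0.00083). ASPN was lower at the edge on days 4, 5, 7, 9, 11, 13 and 16, and lost the calls of day 4 without wound 1, 3 or 6 (adjusted p up to 0.066) and of day 16 without wound 2 or 3 (up to 0.25). On day 5 the ASPN edges held 88.91 to 435.9 CPM with a median of 101.7, the centers 292.9 to 871.5 with a median of 608.5, and the log2 fold change was -1.69 ± 0.44 (adjusted p = 0.0091).

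DCN was lower at the edge on days 5, 7, 11 and 13, by 0.50 to 0.61 on the log2 scale, and each of these calls was lost when at least 1 of the 6 wounds was left out. LUM passed on none of the 14 days with edgeR, where 7 days had an unadjusted p below 0.05. DESeq2 called 4 of its days, and with the wound as a block LUM was lower at the edge on days 4, 5 and 13 (adjusted p = 0.0017, 0.0015 and 0.045). On sums per animal LUM had 1 call in 10 days and in 1 fit of all samples 1 call in 14 days, both on day 4.

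OGN and PRELP were not lower at the edge throughout. On day 15 the OGN edges held 89.04, 105.9 and 155.6 CPM and the centers 10.57, 19.32 and 20.26, without overlap, which gave a log2 fold change of 2.72 ± 0.32 (adjusted p = 0.016). That call was lost without wound 2 or 3, where the value stayed between 2.59 and 2.95 over the leave-outs. OGN was also higher at the edge on day 11 (1.10 ± 0.35), a call lost without wound 1, 2 or 3, and lower on day 1 (-2.15 ± 0.64), a call lost without wound 1 or 5, of which wound 5 had the day 1 center library with keratinocyte markers. On day 15 the summed tendon and fascia markers, of which all 8 were found, were also higher at the edge, at 90.98, 169.8 and 260.3 CPM against 37.21, 59.60 and 66.56 CPM, and their part in the result was not tested. That sum includes KERA, itself a member of the proteoglycan family, and the share of KERA in it on day 15 is not given here. KERA was called higher at the day 15 edge by edgeR (log2 fold change 5.51 ± 1.01, adjusted p = 0.024). Among these markers TNMD was at 0 in 20 samples, COMP in 43 and CILP2 in 54 of 150. Their medians over all samples were 0.45, 0.16 and 0.093 CPM, so they add little to the sum, as does SCX with a median of 0.64 CPM. PRELP was higher at the edge on day 4, with 48.64 to 119.2 CPM against 32.02 to 83.82, which overlap (log2 fold change 0.86 ± 0.26, adjusted p = 0.025), and the call was lost without wound 2 or 4.

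**Figure D3:**
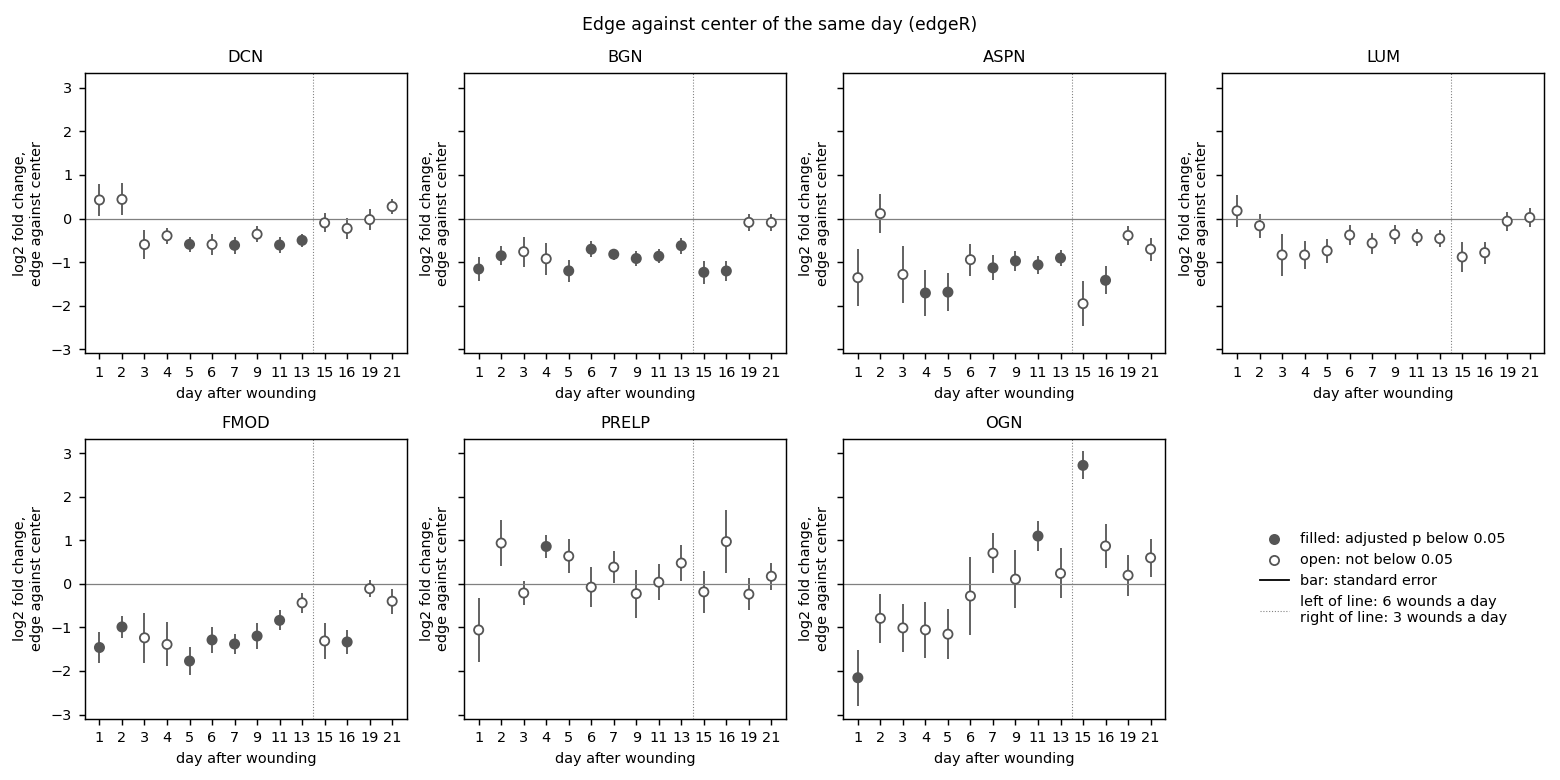
Log2 fold change of the edge against the center (vertical axis) on each of 14 days (horizontal axis) from edgeR, with bars for the standard error, filled points for adjusted p below 0.05 and a dotted line between days with 6 wounds and days with 3. BGN, ASPN and FMOD lie below 0 on most days, with BGN at -0.09 on days 19 and 21 and ASPN at -0.39 and -0.70, and OGN runs from -2.15 on day 1 to 2.72 on day 15.

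Days 3, 19 and 21 had no call among the 7 genes, and hardly any among all genes, with 0 of 14581 genes called on day 3, 0 of 14413 on day 19 and 10 of 14621 on day 21. With edgeR 1, 0 and 1 of the 7 genes had an unadjusted p below 0.05 on these days, and DESeq2 called 0 on each. On day 3 the log2 differences were still -1.24 ± 0.57 for FMOD and -1.28 ± 0.65 for ASPN, and 2 of that day's libraries stood apart in their keratinocyte markers. On day 4, 2 genes were called, beside 27.8% of all genes. With the wound as a block all 7 were called, and on sums per animal 5 were. Over all genes the block raised the calls of 14 days from 47540 to 52926. The sums lowered the calls of their 10 days from 43537 to 35431. The all-gene shares of these fits on day 4 alone are not given here. The block added DCN, LUM, BGN, FMOD and OGN as lower at the edge.

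Over the animals the picture was even. For each animal the difference of edge and center in log2(1 + CPM) was averaged over its 12 wounds, and the 6 animals were tested with an exact sign-flip permutation test (two-sided, smallest possible p = 0.03125, 7 tests, not adjusted). DCN (-0.34 ± 0.10, SD, n = 6), LUM (-0.50 ± 0.08), BGN (-0.88 ± 0.09), FMOD (-1.15 ± 0.18) and ASPN (-1.16 ± 0.29) were lower at the edge in 6 of 6 animals, each at exact p = 0.03125. OGN (-0.23 ± 0.45, exact p = 0.28125) was positive in 2 of 6 animals and PRELP (0.23 ± 0.49, exact p = 0.34375) in 4 of 6. By wound, the edge was above the center in 19 of 72 for DCN, 16 for LUM, 2 each for BGN and FMOD, 5 for ASPN, 32 for OGN and 40 for PRELP.

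Cell type markers moved with the location too. Of the gene and day tests, the keratinocyte markers were higher at the edge in 60 of 98 and lower in 0 (where the centers of days 1 to 13 mostly lack them), the endothelial markers lower in 70 of 112, the macrophage markers lower in 43 of 111 and the fibroblast markers lower in 38 of 140 and higher in 1, beside 12.5% of the tests of all genes higher and 11.0% lower. For the keratinocyte markers edgeR had 1 test lower at an unadjusted p below 0.05 and DESeq2 called 0 lower. The part of these markers in the differences was not tested.

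**Figure D4:**
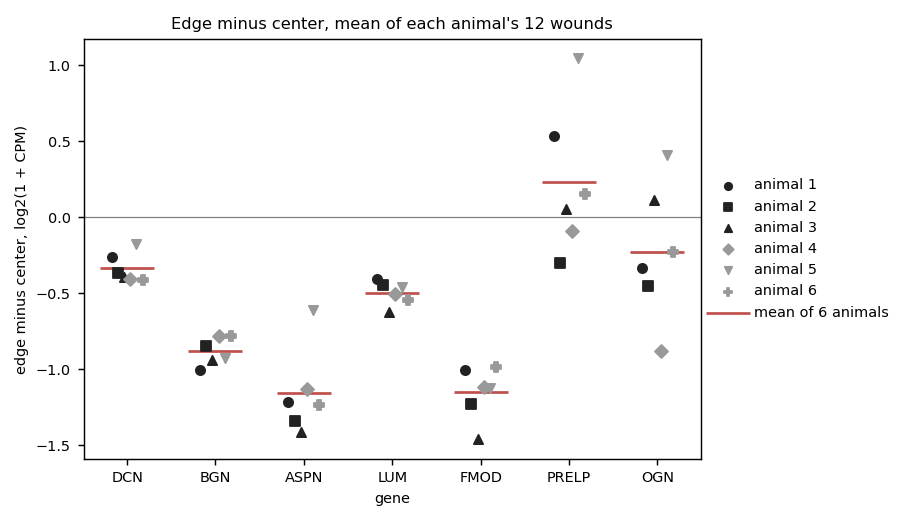
Mean difference of edge minus center in log2(1 + CPM) on the vertical axis for each of the 7 genes, with 1 symbol per animal (the mean of its 12 wounds) and a red line for the mean of the 6 animals. DCN, BGN, ASPN, LUM and FMOD lie below 0 in all 6 animals, and PRELP and OGN lie on both sides.

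Whether the difference of edge and center changed over the days was tested in a single fit of all wound samples (F test of 13 terms). It passed for OGN (adjusted p = 0.017) and DCN (adjusted p = 0.045), beside 30.7% of all genes, and for none of the other 5, whose adjusted p ran from 0.35 for BGN to 0.62 for LUM. With the wound as a block it passed for OGN (0.00037), BGN (0.0083) and FMOD (0.047) and not for DCN (0.053). Without the filter on low counts DCN did not pass either (adjusted p = 0.0501). The OGN call was lost without replicate 1 (adjusted p = 0.20) or 3 (0.093), and the DCN call without replicate 1, 2, 3 or 5 (0.23, 0.35, 0.28 and 0.062). Since the days alternate between animals 1 to 3 and 4 to 6, a change over days and a difference of animals cannot be fully told apart.

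The make-up of the proteoglycan transcripts shifted from DCN to a mixture. In the day 1 centers the summed FPKM of the 7 genes was 416 ± 73 (SD, n = 6) against 1467 ± 525 in day 0 skin, and it was 3968 ± 984 (n = 3) in the day 16 centers. The DCN share went from 78.80% in day 0 skin to 35.7% ± 4.7 in the day 5 centers and 26.2% ± 1.2 in the day 16 centers. There ASPN had 27.3% ± 4.3, LUM 25.6% ± 1.7, BGN 15.6% ± 0.6 and FMOD 4.63% ± 0.90, while PRELP and OGN had 0.30% and 0.29%. ASPN and DCN were thus level in that state: their FPKM ratio, DCN over ASPN, was 0.775, 1.02 and 1.14 in the 3 samples, and the median was 39.8 and the highest 67.8 in day 0 skin.

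The edges kept a larger share of DCN. It was 78.7% ± 7.4 in the day 1 edges against 62.7% ± 4.9 in the day 1 centers, where BGN already had 18.7% ± 7.6. On day 16 the edge share of DCN was 39.1% ± 2.0 and that of ASPN 17.7% ± 3.7, and on day 21 the centers still held 30.3% ± 2.5 ASPN, against 19.6% ± 2.8 at the edge. DCN had the highest FPKM of the 7 genes in 143 of 150 samples, ASPN in 5, and LUM and BGN in 1 each. These shares are descriptions, with no test.

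**Figure D5:**
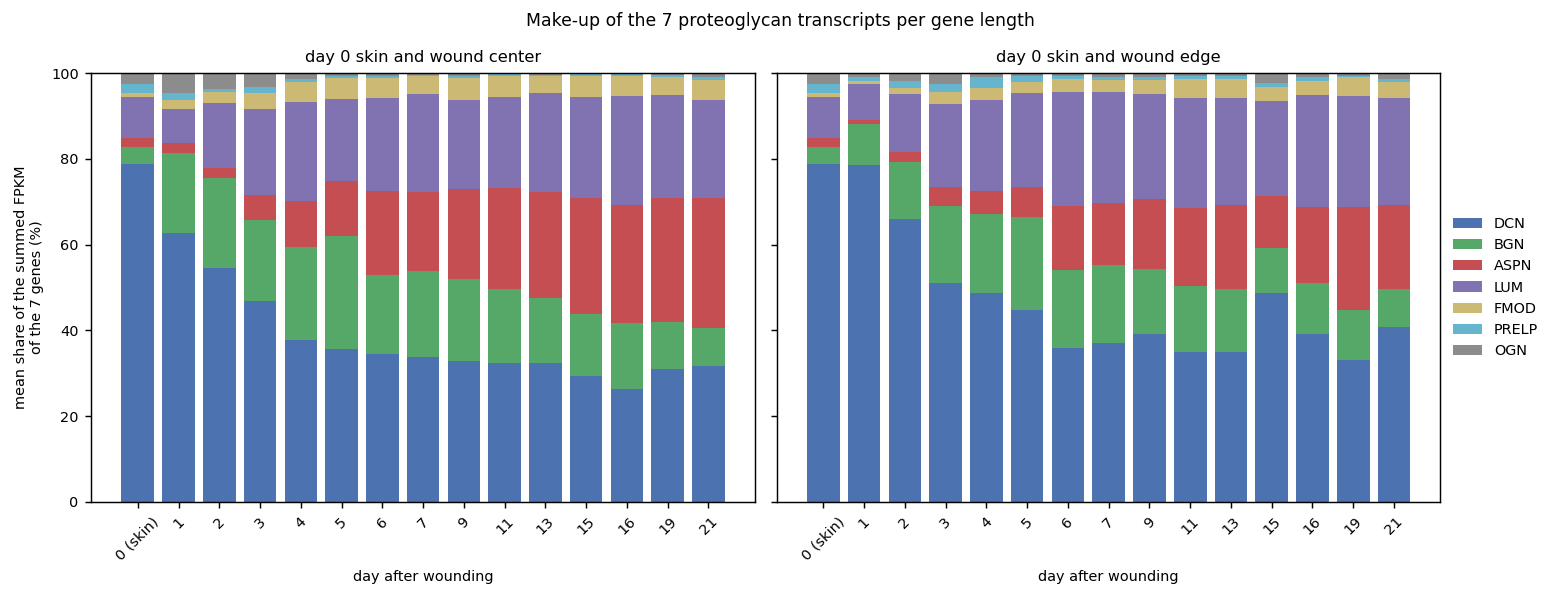
Mean share of each gene in the summed FPKM of the 7 genes (vertical axis, percent) by day (horizontal axis), day 0 skin and centers on the left and day 0 skin and edges on the right. DCN takes 78.80% of the bar at day 0 and 26.2% in the day 16 centers, where ASPN, LUM and BGN fill most of the rest.

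The genes fell into a block that moved together and genes that did not follow it. Over the 29 state means of log2(1 + CPM), LUM and ASPN had a Pearson r of 0.984, FMOD and ASPN 0.979 and LUM and FMOD 0.964, and the 21 pairs ran from -0.20 to 0.984. Of the pairs that share a contig, DCN and LUM had 0.82, the highest of the 6 values of DCN, FMOD and PRELP 0.24 and ASPN and OGN -0.048. Within states, over deviations of the 150 samples from their state mean, OGN and PRELP had 0.62, OGN and DCN 0.62, and LUM and ASPN 0.83. The points share libraries and scaling, so these are descriptions.

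The same deviations were set beside the marker sums. OGN went with the tendon and fascia markers (r = 0.69), the markers of quiescent dermal fibroblasts (0.64) and the adipocyte markers (0.62), and PRELP with the same 3 lists (0.54, 0.59 and 0.52). For LUM, ASPN, FMOD and DCN the highest was the fibroblast list (0.79, 0.76, 0.75 and 0.71), as for BGN (0.56), and OGN had 0.39 with it. The tendon list holds KERA, which lies beside LUM, and the fibroblast sum is mostly the 3 collagens named below. In the quiescent list GSN had the highest median in day 0 skin, 2629 CPM, and a lower one over all samples, 898.2. SFRP2 of the same list went the other way, with 14.94 CPM in day 0 skin and 374.8 over all samples. A sum thus follows its most abundant genes and need not stand for every gene of its list.

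Across 15092 other genes, those with the state pattern most like each member over the 29 states were as follows. For ASPN they were CTHRC1 (r = 0.990), CERCAM (0.989) and MRC2 (0.989), and the same 3 led for LUM (0.985, 0.982 and 0.984). FMOD had P3H3 (0.986), CERCAM (0.984) and COL5A1 (0.984), and BGN had B3GNT9 (0.976), FKBP10 (0.972) and EMILIN1 (0.972). DCN had PDGFRL (0.940), SPARC (0.930) and C1QTNF6 (0.928). OGN had CCDC80 (0.908), ADAM22 (0.888) and ART4 (0.833), and PRELP had the loosest match, with CPE (0.756), RECK (0.745) and ANGPTL1 (0.727).

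The other members of the family did not share 1 pattern. Of 11 listed, 10 were found, and 8 passed the filter, since EPYC had 3 or more counts in only 14 samples and OPTC in 0. Against day 0, 24 of 56 tests in the centers were higher and 14 lower, and 19 and 19 of 56 in the edges. Of the tests of all genes, 32.7% were higher and 30.4% lower in the centers and 26.3% and 21.3% in the edges, and between edge and center 12.5% were higher and 11.0% lower, which is the background for each list that follows. KERA, keratocan, was lower in all 14 windows, most on days 15 and 16 in the centers (-7.63 ± 1.01, adjusted p = 2.0e-08), and OMD, osteomodulin, in 5 center and 6 edge windows. NYX, nyctalopin, was higher in 6 center and 7 edge windows, up to 3.44 ± 0.37. Between edge and center 6 of 111 tests were higher at the edge and 21 lower.

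Most tests of the enzymes that build the sugar chains were called higher than day 0. Of the 18 genes found of 20 listed for chondroitin and dermatan sulfate synthesis, 99 of 126 center tests were higher and 9 lower, and 82 and 13 of 126 in the edges, with a median log2 change of 0.88 and 0.53, beside the all-gene shares given with the family above. CHSY3 and CHST11, a chain synthase and a chondroitin sulfotransferase, were higher in all 7 center windows with a median log2 change of 3.18 and 2.52, and CHPF2 likewise with 2.08. At the edge 92 of 252 tests were lower than in the center and 9 higher. For the 8 genes of keratan sulfate synthesis 40 of 56 center tests were higher and 3 lower, and 30 and 3 of 56 in the edges. CHST6, which sulfates keratan chains, reached 5.15 ± 0.40 in the centers, B4GALT4 2.49 ± 0.18 there, and CHST4 5.42 ± 1.17 in the edges but -3.82 ± 1.46 in the centers, from few counts in both. At the edge 38 of 100 tests were lower and 5 higher.

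The 5 genes of sulfate supply were near the all-gene share of higher calls. In the centers 13 of 35 tests (37.1%) were higher and 4 lower, and in the edges 8 (22.9%) and 2 of 35. PAPSS1, which makes the sulfate donor, reached 0.60 ± 0.11 in the centers and SLC35B2, which carries it into the Golgi, 0.57 ± 0.08, whereas PAPSS2 ranged from -0.85 ± 0.29 in a center window to 0.85 ± 0.37 in an edge window. Between edge and center 7 of 70 tests were lower and 4 higher.

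Among 10 collagens that these proteoglycans bind, COL1A1, COL1A2 and COL3A1 included, 48 of 70 center tests were higher and 13 lower, and 39 and 16 of 70 in the edges. COL5A2, COL5A1 and COL12A1 led, with 3.31 ± 0.23, 3.23 ± 0.25 and 2.98 ± 0.29 in the centers. Of 140 edge and center tests 37 were lower at the edge and 0 higher by edgeR, where 3 were higher at an unadjusted p below 0.05 and DESeq2 called 2 higher. Signalling partners, 15 genes of receptors and ligands, had 50 of 105 center tests higher and 37 lower and 47 and 25 in the edges. CD14 (3.95 ± 0.29), TLR2 (3.84 ± 0.34) and TGFB1 (3.05 ± 0.15) rose in all 7 center windows. Of 208 edge and center tests of these partners 43 were lower and 38 higher.

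The 10 proteases that can cut these proteoglycans had 0 calls lower against day 0 by edgeR, 0 lower at an unadjusted p below 0.05 and 0 by DESeq2. In the centers 60 of 70 tests were higher and in the edges 55 of 70, with a median log2 change of 2.42 and 1.90, and 55 of 136 edge and center tests were lower at the edge and 3 higher. MMP9 reached 9.87 ± 0.65, MMP13, with few counts in day 0 skin, 9.24 ± 1.29 and ADAMTS4, an aggrecanase, 5.51 ± 0.32 in the centers. Of the 14 large proteoglycans, 56 of 98 center tests were higher and 26 lower, and 43 and 16 of 98 in the edges. SRGN, the proteoglycan of blood cell granules, reached 5.63 ± 0.39, SDC2, a syndecan, 2.87 ± 0.18 and HSPG2, perlecan of basement membranes, 2.44 ± 0.14, and 52 of 192 edge and center tests were lower and 31 higher.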

How the data were processed

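The sequencing provider made poly-A libraries and sequenced them as paired reads, and removed reads with adapters, unknown bases or low quality before alignment. The aligner, the counter and the genome build are not given in the sources used here. The authors deposited 2 tables, 1 with the raw read count and 1 with the FPKM value of each gene in each sample. The deposited FPKM equalled count per gene length and total within 1% up to a factor per sample of 0.845 to 1.31. Levels are log2(1 + CPM), with CPM from the total count of each sample and without TMM factors, and FPKM served only to compare genes.

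Counts were tested with edgeR 4.0.16 (quasi-likelihood test, R 4.3.3), TMM and filterByExpr (minimum count 10, minimum total 15). Edge was compared with center per day, windows (counts summed per animal) with day 0 and with the window before, and the change of the difference over days with an F test. DESeq2 1.42.0, no TMM, no filter, blocks, animal sums, other groupings of the samples and left-out libraries were alternatives. Python 3.11.15 with scipy 1.17.1 gave the exact tests. The fits were tested on simulated data in which every gene had the same dispersion. In the day 5 fit of 14653 genes, 100% of genes changed 4-fold and 38% of those changed 2-fold were found. In the day 15 fit of 14853 genes, with 3 wounds per group, these were 58% and 3%. Genes with more or less spread between wounds than simulated can have other rates. Samples of a group are separate wounds, so p-values per day measure the spread between wounds of 3 animals.

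The labels give both biopsies of a wound the same animal and wound, so replicate numbers pair edge and center. The mean correlation of their deviations was 0.26 over 72 pairs, with 64 above 0. Named were the 7 members, the 3 genes most like each member and the top 3 genes of each pathway list by median absolute log2 change over 14 windows. COL1A1, COL1A2 and COL3A1 are named as part of 2 lists, and EPYC, OPTC, TNMD, SCX, COMP and CILP2 for their low counts. GSN and SFRP2 are named for their part in a marker list. The members, lists and the 7 libraries left out were chosen with earlier results of these data known. Marker lists not given elsewhere had these counts of center window tests higher and lower: neutrophil and monocyte (7 of 8 found) 48 and 0 of 49, endothelium 56 and 0 of 56, macrophage 56 and 0 of 56, skeletal muscle (9 of 10 found) 36 and 0 of 63, adipocyte 18 and 3 of 49, smooth muscle and pericyte 24 and 15 of 56, tendon and fascia 14 and 16 of 56, quiescent dermal fibroblast 18 and 14 of 56, fibroblast 34 and 14 of 70, keratinocyte 0 and 35 of 49, and erythrocyte (4 of 6 found) 14 and 5 of 21. The lists of keratinocytes, adipocytes and erythrocytes had under 80% of their genes in the table.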

Additional observations from a re-analysis of the deposited data

Results flagged for a closer look

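In groups of 6 samples, the gap of the highest or lowest sample to its nearest neighbour was divided by the range of the group, and 4 of 147 groups exceeded the 95% limit of Dixon's test. Chance flags about 1 in 20 such groups, or 7.35 of 147. DCN in the day 9 edges had sample 4 below the rest, with a gap of 0.673 of the range. BGN in the same edges had sample 6 below the rest (0.874). OGN in the day 3 centers had sample 4 below the rest (0.677), the library with keratinocyte markers at 36921 CPM. PRELP in the day 5 centers had sample 1 below the rest (0.631).

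The difference between edge and center changed over the days for DCN (adjusted p = 0.045135) and OGN (adjusted p = 0.016739) by edgeR's quasi-likelihood F test on all wound samples, and the limits of both calls are given with the comparison.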

How the results depend on the processing

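The counts of called tests held within 1.5 times for the 3 families of comparisons of the 7 genes. Edge against center had 33 calls, and 38 without TMM, 34 without the filter, 42 with the replicate block of the wound, 42 with DESeq2, 31 with animal sums on the 10 days that allow them and the other days unchanged, of which 28 were among the 33, and 28 with all 150 samples in 1 fit, of which 21 were among the 33. The windows had 77 calls, and 77 to 80 under the alternatives, with 80 for the replicate block of the animal. The steps between windows had 13, and 19 with the replicate block, 16 with DESeq2 and 10 with the compared groups alone. Leaving out replicates gave 22 to 32, 71 to 78 and 9 to 12 calls, and 16 of 33, 67 of 77 and 9 of 13 calls stayed in every leave-out. The change of the difference over days was called for 2 genes, for 1 without the filter, for 3 with the replicate block and for 0 to 2 without a replicate. Of 1558 single values under the alternatives, 0 reversed and 105 lost their call. Over all genes edge against center went from 47540 calls to 52926 with the replicate block and 57259 with DESeq2. The windows went from 133807 to 140675 and 138011. The steps between windows rose from 11538 calls to 15212 and 16254 with these settings, and fell to 5707 with the compared groups alone. Without replicates 1, 2 and 3, which are whole animals there, they fell to 7679, 6918 and 5620. With 5 animals the smallest exact p is 0.0625, so no sign-flip test could pass. Days 15, 16, 19 and 21 had 3 wounds per group, so a missing call there does not show that a difference is absent. BGN was called at 2.35-fold on day 15 and at 2.30-fold on day 16.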
